A study of Mus musculus with 6 samples.

Results

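Sm proteins, LSm proteins and the factors that build them into small nuclear ribonucleoproteins (snRNPs) are the machinery that the survival motor neuron protein, SMN, works on. The 40 genes described here were chosen by name for that role, and 39 of them had an entry under their symbol in a table of 41945 genes and loci. The fortieth, Lsm8, was listed under its older symbol Naa38 and is given separately. RNA was sequenced from cells sorted as motor neurons (MNs), made from 2 mouse embryonic stem cell (mESC) lines, in 3 samples per line. The name MNs is that of the authors and stands here for the sorted cells, whose cell type markers are given below. The Hb9 control line had normal mouse Smn and the A2 SMA line lacked functional mouse Smn (mSmn-/-). Both lines carried the human SMN2 transgene (SMN2+/+) on an FVB/N background and an eGFP reporter driven by the promoter of Hb9, which is expressed in MNs. Embryoid bodies of both lines were grown for 2 days, then treated for 5 days with 1 µM retinoic acid and 1 µM SAG, a Smoothened agonist, and live eGFP-positive cells (those that took up no propidium iodide) were sorted by FACS. Each genotype is represented by 1 cell line, so genotype and line cannot be told apart.

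Spliceosomal snRNAs U1, U2, U4 and U5 are wrapped by a ring of Sm proteins, which SMN and its Gemin partners load onto the RNA in the cytoplasm. Before that step, the PRMT5 complex methylates several Sm proteins and the chaperone pICln holds them. The cap of the snRNA is then hypermethylated, and the particle is imported into the nucleus and passes through Cajal bodies. U6 carries a ring of LSm proteins instead, and a related ring that contains Lsm1 acts in mRNA decay. U7, the snRNA of histone mRNA 3' end formation, has a mixed ring with Lsm10 and Lsm11. Loss of SMN causes spinal muscular atrophy (SMA), a disease of spinal MNs.

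Levels are FPKM, fragment counts scaled to transcript length and to the mapped fragments of the library, as pooled by the authors over the 3 samples of a genotype. There is 1 value per genotype and gene, so that no difference below has a replicate check, an error or a test. The number of reads behind a value is unknown. Differences are given as the log2 ratio of A2 SMA over Hb9 control, or as the fold, and a difference of at least 1.5-fold was counted as a description. Where a pair of FPKM values is given, the first is that of Hb9 control and the second that of A2 SMA MNs. Smn1, the deleted gene, was listed at 137 and 5.26 FPKM, 25.9-fold lower.

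The sorted cells of the genotypes differed widely in their cell type markers. Of 8 MN markers above the filter, 7 were at least 1.5-fold lower in A2 SMA cells, with the sum over the list at 279 FPKM in Hb9 control and 64.8 FPKM in A2 SMA cells. Isl1 went from 108 to 5.95 FPKM, whereas Mnx1, which encodes Hb9 itself, was listed at 41.2 and 44.2 FPKM. All 11 pan-neuronal markers were lower (sum 1717 and 160 FPKM), as were 6 of 7 neural progenitor markers by at least 1.5-fold (sum 2492 and 259 FPKM). Of 10 pluripotency markers, 9 were higher by at least 1.5-fold (sum 459 and 2028 FPKM), with Pou5f1 at 98.3 and 775 FPKM. Fibroblast markers summed to 69.6 and 36.6 FPKM, with 5 of 8 lower and 1 higher by at least 1.5-fold. Proliferation markers summed to 1312 and 1605 FPKM, with 7 of 10 higher, 2 of them by at least 1.5-fold (20.0% of the 10). Of the 14926 genes above the filter, 12.7% were higher and 35.4% were lower by at least 1.5-fold. None of these marker genes was listed at 0 FPKM in either genotype. The part of cell composition in the differences of snRNP genes was not tested, and in sorted cell populations fewer cells of a type and less RNA per cell cannot be told apart.

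Most snRNP genes were listed at similar levels in both genotypes. Of the 39, 35 (89.7%) differed by less than 1.5-fold, compared with 51.9% of the 14926 symbol-bearing entries that reached 1 FPKM in a genotype and were above 0 in both (here called all genes). All 39 passed that filter. Only Coil was at least 1.5-fold higher (2.56% of the 39, against 12.7% of all genes), and Lsm11, Lsm7 and Snrnp48 were at least 1.5-fold lower (7.69%, against 35.4% of all genes). At 2-fold, Coil was above the limit (6.83% of all genes were higher) and Lsm11 below it (22.4% of all genes were lower). Just inside the lower limit lay Snrnp48, 1.5-fold lower, and just outside it Snrnp35, 1.44-fold lower. On the upper side, Snrpe came next after Coil, 1.41-fold higher.

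The median gene of the table was lower in A2 SMA MNs, with a log2 ratio of -0.29, and the median snRNP gene had a log2 ratio of 0.07. With ratios taken relative to the median gene, 8 of the 39 were at least 1.5-fold higher (20.5%, against 20.8% of all genes) and 1 was at least 1.5-fold lower (2.56%, against 25.5%). The 8 were Coil, Snrpe, Wdr77, Prmt5, Lsm2, Lsm3, Snrnp40 and Prpf4, and the 1 was Lsm11. The share of higher genes was therefore near that of all genes on this scale, whereas few members were lower on either scale. Members were more abundant than the average gene, with a median of 51.3 and 59.8 FPKM against 17.6 and 12.9 FPKM over all genes. Among the 27 members that reached 30 FPKM, 1 was higher and 1 was lower by at least 1.5-fold, where 9.66% and 28.5% of all genes at that level were.

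**Figure D1:**
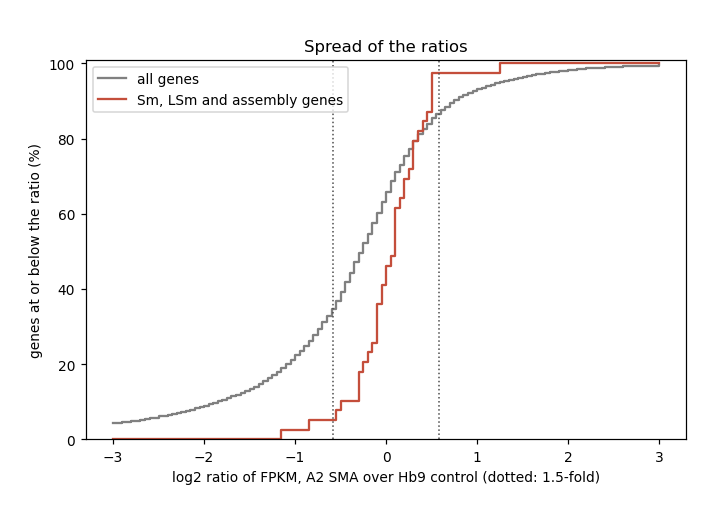
Cumulative share of genes (y axis, %) at or below each log2 ratio of A2 SMA over Hb9 control FPKM (x axis, from -3 to 3 in steps of 0.05), for all 14926 genes (grey) and the 39 snRNP genes (red), with dotted lines at 1.5-fold. The red curve climbs steeply between the dotted lines, where 89.7% of the snRNP genes and 51.9% of all genes lie.

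The Sm ring genes differed little between the genotypes. Snrpb, whose products SmB and SmB' are shared by the spliceosomal snRNPs, was listed at 168 and 156 FPKM. Snrpd3 (SmD3) was the most abundant, at 237 and 260 FPKM. Snrpd1 (SmD1) was listed at 44.5 and 43.7 FPKM, and Snrpd2 (SmD2) at 22.0 and 23.2 FPKM. These 4 genes lay between log2 ratios of -0.10 and 0.13. Snrpf (SmF) was at 20.9 and 22.0 FPKM, over a locus 9.68 times as long as its gene. Snrpg (SmG), the least abundant, was at 4.99 and 4.61 FPKM. Snrpe (SmE) was the ring gene with the largest difference, at 82.6 and 116 FPKM, a log2 ratio of 0.49. Over the 8 Sm genes, which include Snrpn, 4 were higher and 4 lower, none by 1.5-fold, and the median log2 ratio was 0.02.

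The ring proteins are used in equal numbers, but their mRNAs were listed at levels 47.5-fold apart in Hb9 control and 56.3-fold apart in A2 SMA MNs. The 3 lowest, Snrpg, Snrpf and Snrpd2, have near-identical copies elsewhere in the genome. The reads were single-end and 50 bases long, so each coding sequence was cut into all its 50-base windows, and these were looked for in the annotated transcripts of other genes (GENCODE M21). All windows of Snrpg were found in another gene. The processed pseudogene Gm8186 holds the whole coding sequence of Snrpg, which is spread over 4 exons in the gene itself, in 1 block of 231 bases at chr17:26098991-26099221 (GRCm38, minus strand). It is shown because a 50-base read from within this stretch matches both genes equally well:
Snrpg and Gm8186: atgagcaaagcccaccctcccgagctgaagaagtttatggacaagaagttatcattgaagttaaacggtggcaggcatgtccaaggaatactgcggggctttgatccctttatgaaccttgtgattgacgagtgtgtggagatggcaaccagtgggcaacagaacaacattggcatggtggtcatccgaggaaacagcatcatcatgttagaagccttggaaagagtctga
Gm8186 had its own entry in the table (NCBI m37, chr17:26235936-26236166), at 65.7 and 51.7 FPKM. That was 13.2 and 11.2 times the level listed for Snrpg, so the level of Snrpg is uncertain.

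The same held in part for other Sm genes. Snrpf shared 81.6% of its windows, all of them with the pseudogene Gm13092, whose entry was at 47.2 and 46.9 FPKM, above Snrpf in both genotypes. The locus listed for that entry spans 340547 bases. Separate entries can share a listed locus, so its length does not show which reads an entry holds. For Snrpd1, 36.0% of the windows were also in Gm14277, listed at 76.0 and 76.1 FPKM over a locus of 58642 bases. Snrpe shared 56.1% of its windows, and the entry of its retrotransposed copy Snrpert (listed as Gm14284) was at 94.9 and 108 FPKM over a locus of 90423 bases. Snrpd2 shared 51.9%, but the pseudogenes concerned, Gm10120 and Gm5449, were listed at 0 FPKM in both genotypes. Snrpd3 shared no window and Snrpb shared 0.155%, and these were the Sm genes with the highest levels. Snrpe, however, was listed above Snrpn (33.8% shared) and Snrpd1 in both genotypes. The part of shared windows in the spread of Sm mRNA levels was not tested.

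**Figure D2:**
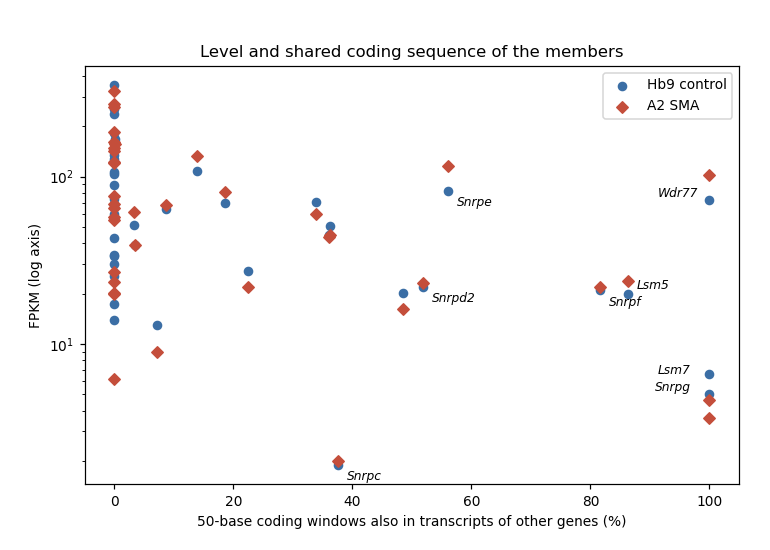
FPKM (y axis, log scale) against the share of 50-base coding windows that transcripts of other genes also hold (x axis, %), for the 39 snRNP genes in Hb9 control (blue circles) and A2 SMA MNs (red diamonds), with the 7 genes above 50% and Snrpc named. Genes without shared windows reach from 14.0 to 353 FPKM in Hb9 control MNs, and those above 50% from 4.99 to 82.6 FPKM.

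Over all 39 genes, 7 shared over 50% of their coding windows with other genes, with a median of 20.9 and 23.2 FPKM. The 19 genes without a shared window had medians of 73.3 and 77.1 FPKM. Their median log2 ratios were 0.07 and 0.09 respectively. Of the windows of Wdr77, 100% were found in Gm42890, an annotated overlapping gene, 10.1% in Atp5f1 and 7.04% in the pseudogene Gm15528, which was listed at 18.8 and 27.8 FPKM. Overlapping genes were thus counted as well as copies elsewhere. A window shared with an overlapping gene need not match several places in the genome.

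Snrpn encodes SmN, the neuronal counterpart of SmB, and comes from an imprinted locus. It was listed at 70.8 and 59.8 FPKM, a log2 ratio of -0.24. Snrpn therefore made up 29.6% of the summed FPKM of Snrpb and Snrpn in Hb9 control and 27.7% in A2 SMA MNs. These small differences contrast with those of pan-neuronal markers, of which all 11 were at least 2-fold lower. The coding sequences of the pair are 80.5% identical over 696 aligned bases, but the longest identical run is 32 bases and they share no 50-base window. Their most similar stretch within single exons, coding bases 4 to 63 of each, is shown because differences in it tell reads of the paralogs apart. Capitals mark the 6 differences, and both stretches are on the minus strand of GRCm38, at chr2:130177107-130177166 in exon 2 of Snrpb and at chr7:59987504-59987563 in exon 6 of Snrpn:
Snrpb: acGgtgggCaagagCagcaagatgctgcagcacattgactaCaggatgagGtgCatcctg
Snrpn: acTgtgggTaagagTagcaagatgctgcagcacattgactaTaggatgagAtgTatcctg
Of the windows of Snrpn, 32.2% were also found in Gm38393, an annotated gene of which the type is given as nonsense-mediated decay, and 9.64% in the pseudogene Gm5802.

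**Figure D3:**
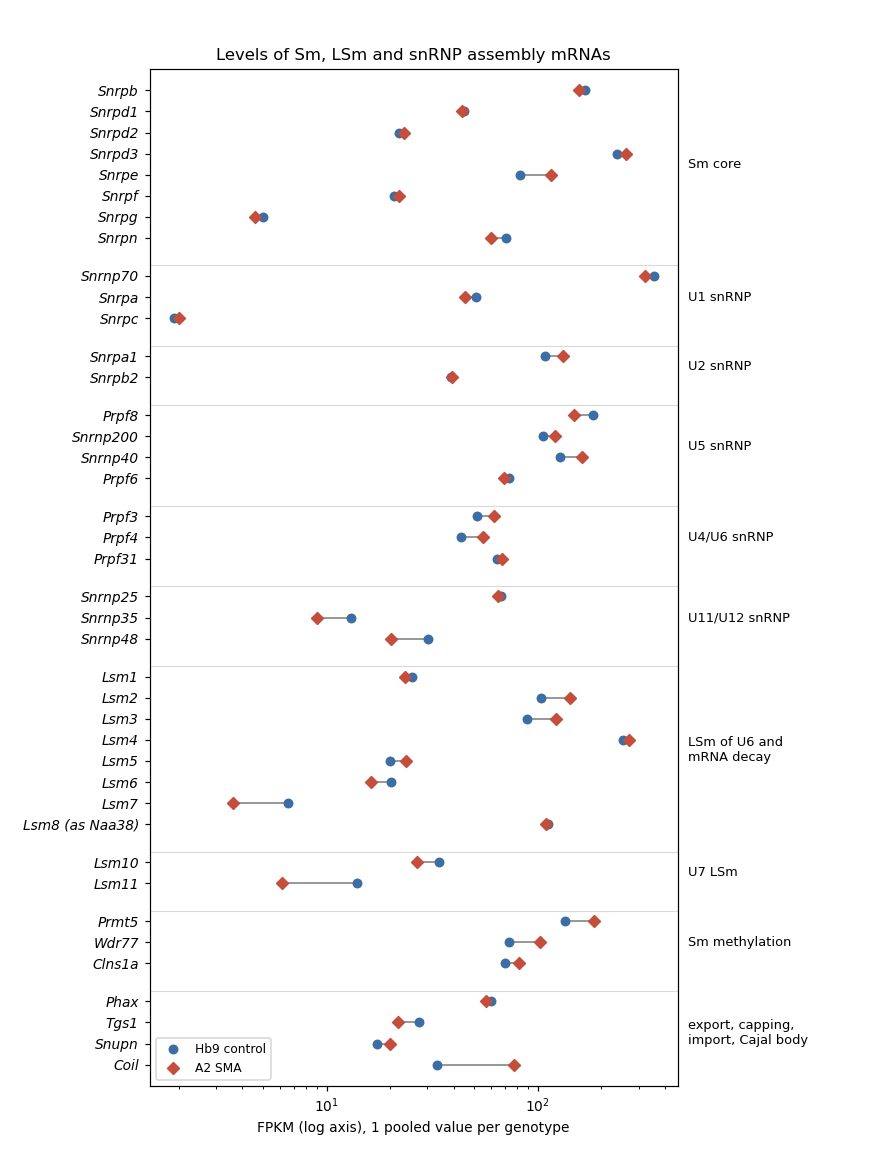
FPKM (x axis, log scale) of each snRNP gene in Hb9 control (blue circles) and A2 SMA MNs (red diamonds), 1 pooled value per genotype, grouped by role, with Lsm8 under its older symbol Naa38. Levels run from 1.89 to 353 FPKM in Hb9 control MNs, and the long connecting lines belong to Coil, Lsm11, Lsm7, Snrnp48 and Snrnp35.

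Proteins particular to U1, U2, U5 and U4/U6 also stayed within 1.5-fold. Snrnp70, the U1 protein that binds the first stem-loop of U1 snRNA, was the most abundant of the 39 genes at 353 and 323 FPKM. A second, smaller entry of Snrnp70 at the same locus was at 19.4 and 10.6 FPKM. Snrpa, the U1 protein of the second stem-loop, was listed at 50.9 and 45.1 FPKM. Snrpc, which helps U1 to recognise the 5' splice site, was listed at only 1.89 and 2.0 FPKM, 187-fold below Snrnp70 in Hb9 control MNs. Snrpc shared 37.6% of its coding windows with other genes, of which Gm2991 and Gm8849, the closest with an entry, were at 0 FPKM. Of the U2 genes, Snrpa1 was at 108 and 132 FPKM and its partner on U2 snRNA, Snrpb2, at 38.8 and 39.3 FPKM.

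In U5, Prpf8, which lies at the catalytic centre of the spliceosome, was listed at 183 and 149 FPKM and had a log2 ratio that matched the median gene to 2 decimals (-0.29). The helicase Snrnp200 was at 106 and 120 FPKM, the WD-repeat protein Snrnp40 at 127 and 162 FPKM, and Prpf6, which bridges U5 with U4/U6, at 73.3 and 69.1 FPKM. All 3 U4/U6 genes were higher in A2 SMA MNs by less than 1.5-fold. Prpf3 was at 51.3 and 61.7 FPKM, Prpf4 at 43.2 and 55.1 FPKM, and Prpf31 at 64.2 and 67.5 FPKM. Of 11 other U5 and tri-snRNP genes, none differed by 1.5-fold and the median log2 ratio was 0.02. They included the U5 GTPase Eftud2 (386 and 407 FPKM), Txnl4a (198 and 205 FPKM), the helicase Ddx23 (102 and 81.7 FPKM) and Cd2bp2 (61.1 and 58.4 FPKM). The entry of Txnl4a also holds Gm16286.

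The U11/U12 di-snRNP, which recognises the rare introns of the minor spliceosome, has 3 genes among the 39. Snrnp48 was listed at 30.2 and 20.1 FPKM (NCBI m37, chr13:38296805-38319532), a log2 ratio of -0.59. Snrnp35, the counterpart of Snrnp70 in U11, was at 13 and 8.98 FPKM, a log2 ratio of -0.53. Snrnp25 was nearly level, at 66.6 and 64.7 FPKM. Of the 4 other U11/U12 genes, Zmat5 was at 40.5 and 25.1 FPKM (1.61-fold lower) and Zcrb1 at 80.6 and 51.3 FPKM (1.57-fold lower). Rnpc3, which connects U11 to U12, was at 30.4 and 23.6 FPKM in an entry that also holds Amy1, and Pdcd7 was at 21.6 and 23.2 FPKM. Of the 7 U11/U12 genes, 6 were at a lower level in A2 SMA MNs, as were 9838 of the 14926 genes overall. The difference was at least 1.5-fold for 3 of the 7 (42.9%), near the 35.4% of all genes lower by as much. The median log2 ratio of the 7 was -0.53 beside -0.29 for all genes, 2 of the 7 lay above the median gene, and relative to it none of the 7 was lower by 1.5-fold.

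**Figure D4:**
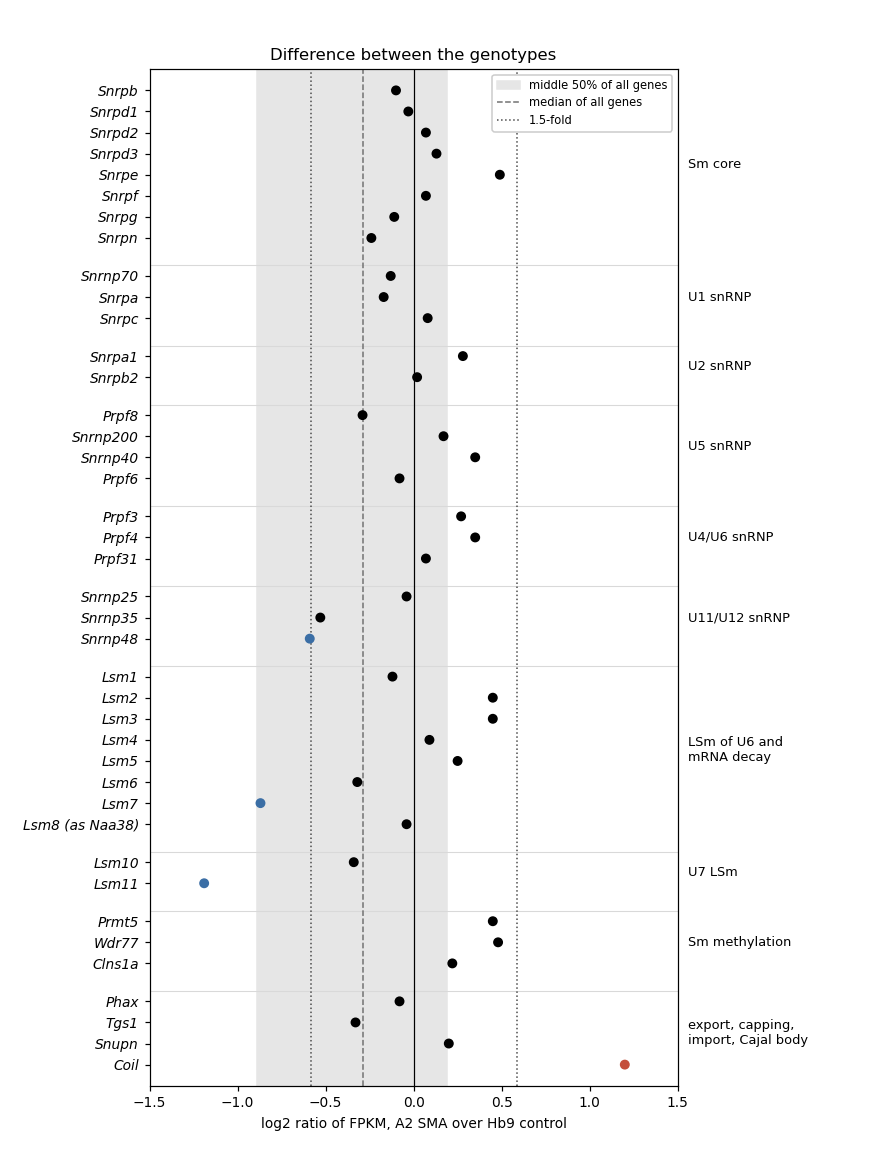
Log2 ratio of FPKM, A2 SMA over Hb9 control (x axis), for each snRNP gene by role, with the middle 50% of all genes (grey band, -0.89 to 0.19), their median (dashed line, -0.29) and 1.5-fold differences (dotted lines). Coil (red) lies beyond the upper dotted line and Lsm11, Lsm7 and Snrnp48 (blue) beyond the lower one, and all 8 Sm core genes lie to the right of the dashed line.

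The LSm genes were more spread. Lsm2 was listed at 104 and 142 FPKM, and Lsm3 at 89.3 and 122 FPKM, both with a log2 ratio of 0.45. Lsm4 was the most abundant LSm gene, at 254 and 271 FPKM. Lsm5 was at 20 and 23.9 FPKM and Lsm6 at 20.2 and 16.2 FPKM. Lsm7 was at 6.57 and 3.60 FPKM (NCBI m37, chr10:80315563-80317972), a log2 ratio of -0.87. Lsm7 shared 100% of its coding windows with other genes, Lsm5 shared 86.3% and Lsm6 shared 48.5%. Lsm1, Lsm2, Lsm3, Lsm4 and Lsm8 shared none, and of these Lsm1, at 25.4 and 23.4 FPKM, was at a level like that of Lsm5. Gm10146, a pseudogene that holds 98.9% of the windows of Lsm7, was listed at 0.755 and 0.901 FPKM. The level and ratio of Lsm7 are therefore uncertain.

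Lsm1 and Lsm8 are the subunits that set the use of the ring, in cytoplasmic mRNA decay and on nuclear U6 respectively. Lsm1 was listed at 25.4 and 23.4 FPKM and Lsm8, as Naa38, at 112 and 109 FPKM. Lsm1 made up 18.5% of the summed FPKM of the pair in Hb9 control and 17.7% in A2 SMA MNs. Among 8 partners of the Lsm1 ring in mRNA decay, 7 were lower in A2 SMA MNs, but 6 of the 8 had a ratio above that of the median gene. Dcp1b (14.7 and 8.75 FPKM), named after its values were seen, was the 1 of the 8 (12.5%) lower by at least 1.5-fold, where 35.4% of all genes were. The most abundant were the decapping scaffold Edc4 (63.0 and 55.7 FPKM, in an entry with Nrn1l), Patl1 (34.6 and 33.5 FPKM), the helicase Ddx6 (31.7 and 30.4 FPKM) and Edc3 (24.8 and 21.9 FPKM).

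Both LSm genes particular to U7 were lower in A2 SMA MNs, as were 9838 of all 14926 genes. Lsm11 was listed at 14.0 and 6.14 FPKM (NCBI m37, chr11:45741771-45758437). Its log2 ratio of -1.19 (2.28-fold lower) was the lowest of the 39, and 81.9% of all genes had a higher ratio. Lsm10 was listed at 34.0 and 26.9 FPKM, 1.27-fold lower. The log2 ratio of Lsm10, -0.34, lay near that of the median gene (-0.29), and 52.6% of all genes had a higher ratio. Neither gene shared a coding window with another, and both have their entry to themselves. The 7 other genes of histone mRNA 3' end formation did not differ by 1.5-fold, and their median log2 ratio was -0.07. Slbp, which binds the histone stem-loop, was at 50.4 and 58.5 FPKM, Sympk at 169 and 152 FPKM, the endonuclease Cpsf3 at 68.0 and 57.9 FPKM and Cstf2, in an entry with Mir3112, at 72.3 and 69.0 FPKM.

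The 3 genes of the Sm methylation complex were all higher in A2 SMA MNs, none by 1.5-fold. Of all 14926 genes, 5088 were higher. Relative to the median gene, 2 of the 3 (66.7%) were at least 1.5-fold higher, against 20.8% of all genes. Prmt5, the arginine methyltransferase, was listed at 135 and 185 FPKM, a log2 ratio of 0.45. Its partner Wdr77 (MEP50) was at 72.9 and 102 FPKM, a log2 ratio of 0.48, in an entry that also holds Ovgp1. Clns1a, which encodes pICln, was at 69.7 and 81.3 FPKM, a log2 ratio of 0.22. The median of the 3, 0.45, was the highest of the 10 roles. Cuffdiff marked the entry of Prmt5 as FAIL, as it did those of Prpf8 and Snrpa, and the loci listed for Wdr77 and Clns1a are 4.19 and 5.76 times as long as the annotated genes.

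Of the factors that act around assembly, only Coil differed by 1.5-fold. Coil, the scaffold protein of Cajal bodies, was listed at 33.5 and 77.1 FPKM (NCBI m37, chr11:88831566-88852927), 2.30-fold higher. Of all genes, 5.25% had a higher ratio. The entry also holds 2210409E12Rik, which is annotated as a transcribed pseudogene, and the part of each cannot be told apart, although the coding sequence of Coil shared no window with another gene. Phax, the adaptor for snRNA export, was at 60.2 and 57.0 FPKM over a locus 3.09 times as long as the annotated gene. Tgs1, which hypermethylates the cap, was at 27.4 and 21.8 FPKM, and Snupn, the import adaptor for that cap, at 17.3 and 19.9 FPKM. Among 5 carriers that work with Phax and Snupn, none differed by 1.5-fold. The most abundant were the importin Kpnb1 (482 and 504 FPKM), the exportin Xpo1 (246 and 277 FPKM), Ran (140 and 162 FPKM) and the cap-binding protein Ncbp1 (85.5 and 90.5 FPKM).

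Other genes of Cajal bodies and RNA modification leaned higher with Coil. Of 9, 8 were higher in A2 SMA MNs, 2 of them by at least 1.5-fold (22.2%, against 12.7% of all genes), and the median log2 ratio was 0.42. Dkc1, the pseudouridine synthase of H/ACA particles, was at 166 and 276 FPKM and its partners Nhp2 and Gar1 at 120 and 179 FPKM and at 77.8 and 110 FPKM. Nolc1, which shuttles between nucleolus and Cajal body, was at 59.1 and 97.7 FPKM. The entries of Nhp2 and Nolc1 had the status FAIL. Relative to the median gene, 7 of the 9 were higher by 1.5-fold, where 20.8% of all genes were. These H/ACA proteins also serve ribosomal RNA and telomerase.

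The lowest log2 ratio of the SMN complex, -4.70, was that of Smn1, the deleted gene, so that difference was fixed by the design. Gemin8 was listed at 4.21 and 0.839 FPKM, 5.01-fold lower, with the value in A2 SMA MNs below 1 FPKM. The other genes of the complex spanned -0.64 to 0.53, where the Sm genes spanned -0.24 to 0.49. Gemin4 was at 260 and 167 FPKM, in an entry with Glod4 and Vps53. Gemin7 was at 59.2 and 42.7 FPKM and Strap (Unrip) at 207 and 182 FPKM. Including Smn1, 3 of the 9 genes (33.3%) were lower by at least 1.5-fold, near the 35.4% of all genes. None was higher by as much, where 12.7% of all genes were. Relative to the median gene, 2 were higher and 2 lower by as much (22.2% each, near the 20.8% and 25.5% of all genes). Of 18 genes of snRNA transcription and 3' end formation, 8 were higher and 10 lower, with a median log2 ratio of -0.01. Its most abundant genes were the Integrator subunits Cpsf3l (74.6 and 89.6 FPKM), Ints2 (62.0 and 45.1 FPKM), Ints3 (47.0 and 58.5 FPKM) and Ints10 (56.7 and 56.0 FPKM, in an entry with Gm15549). Of the 18, 1 was higher and 1 lower by at least 1.5-fold (5.56% each, against 12.7% and 35.4% of all genes). Named after their values were seen, these were Snapc5 (12.7 and 23.5 FPKM) and Snapc1 (37.9 and 22.9 FPKM, status FAIL). They encode subunits of SNAPc, the promoter factor of snRNA genes.

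**Figure D5:**
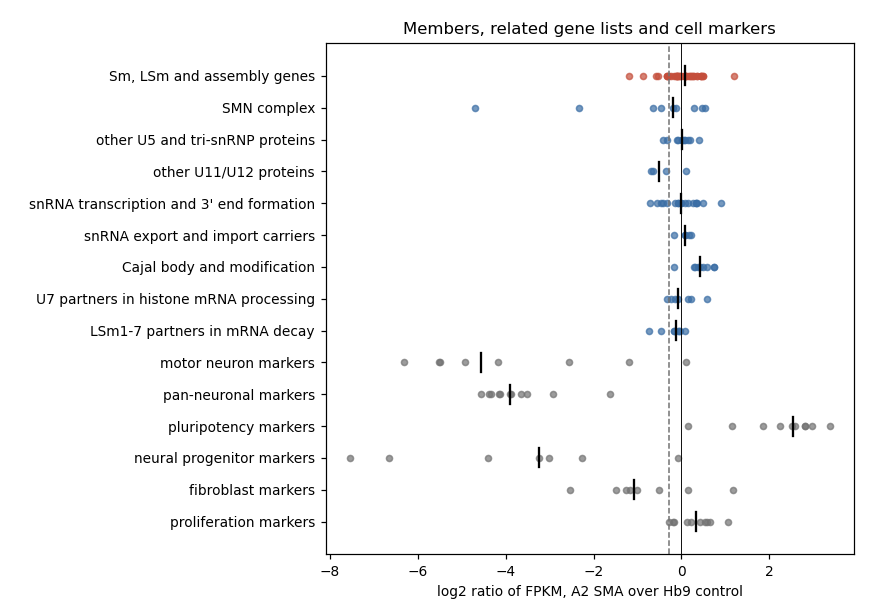
Log2 ratio of FPKM, A2 SMA over Hb9 control (x axis), for the 39 snRNP genes (red), related gene lists (blue) and cell type markers (grey) at 1 FPKM or more in either genotype, 1 point per gene, with black ticks at each list's median and a dashed line at the median of all genes (-0.29). The snRNP genes span -1.19 to 1.20 and the MN markers -6.31 to 0.10.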

How the data were processed

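Reads of 3 Hb9 control and 3 A2 SMA samples were processed by the authors, who used FastQC 0.10.1, cutadapt, TopHat2 2.04, Cufflinks and Cuffdiff per the labels and mapped to NCBI m37 with its Ensembl annotation. The deposited gene table of Cuffdiff gives 1 FPKM per genotype, and no column of single samples was used. Its columns of fold change, test statistic, p-value, q-value and significance were not used. The depth per sample is not in the table, and the library kit does not mark strand. Cuffdiff's status was FAIL for 3 of the 39 genes (Snrpa, Prpf8 and Prmt5) and, among related genes named, for Cd2bp2, Ints2, Ints10, Snapc1, Kpnb1, Cpsf3, Edc4, Ddx6, Nolc1 and Nhp2.

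The table was analysed in Python 3.11.15, numpy 2.4.6 and pandas 2.3.3, and figures drawn with matplotlib 3.10.9. Symbols were split at commas, and the entry with the highest FPKM was taken for each symbol. Log2 ratios had no pseudocount. For counts over all genes, an entry with several symbols was counted once. The counting was tested on simulated data. Older symbols (Sip1, Zfp259, Mtap2 and Naa38) were matched by RefSeq synonyms, and windows and paralogs compared in GENCODE M21 (GRCm38), with Biopython 1.88, while Asun, Ice1, Slc18a3, Tubb3 and Sox1 were not matched and are not analysed here. Positions of entries are those of NCBI m37.

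Named were all 40 members, Smn1, at most the 4 most abundant genes of a related list and any past 2-fold, and at most the 3 most abundant of a marker list. Dcp1b, Snapc5 and Snapc1 were named outside this rule, after their values were seen. The members and lists were chosen with earlier results of these data known. A further MN marker is not reported here.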

Additional observations from a re-analysis of the deposited data

How the results depend on the processing

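Scaling set most of the counts. Scaling to the median gene or to the upper quartile subtracted -0.29 from each log2 ratio. On either scale, 8 of the 39 genes were at least 1.5-fold higher and 1 lower, with a median log2 ratio of 0.36. Scaled to Gusb, Pgk1 and Rpl13a (-0.14 subtracted), 6 were higher and 2 lower, with a median of 0.21. With entries of a single symbol only, which leaves out Coil and Wdr77, 0 were higher. At 2-fold in place of 1.5-fold, 1 was lower. Pseudocounts of 0.1 or 1 FPKM left 2 lower genes, since Snrnp48 lay at the limit. Leaving out the filter, asking for 5 FPKM, summing the entries of a symbol and leaving out status FAIL gave 1 higher and 3 lower. So did adding Lsm8, and leaving out the 7 genes with over 50% of their windows shared gave 1 and 2; both were chosen after seeing the data. No paired analysis was possible because the table gives no values of single samples, and leaving out replicates was not run for the same reason.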
